A study of Mus musculus with 2 samples.

Results

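The proliferating T cells of orthotopic mouse pancreatic tumors were taken as cells that held RNA of the T cell receptor complex together with RNA of the dividing-cell program. From all barcodes with at least 500 UMIs (unique molecular identifiers, each counting 1 captured RNA molecule), 200 to 5000 detected genes and a mitochondrial share of at most 8%, T cells were those with at least 3 UMIs summed over Cd3d, Cd3e, Cd3g and Trac, at most 1 UMI of the keratins Krt8 and Krt18 and at most 2 UMIs of the macrophage complement genes C1qa, C1qb and C1qc. A T cell counted as proliferating when it held at least 4 UMIs summed over Mki67, Top2a, Birc5, Stmn1 and Pclaf, of which at least 1 came from Mki67, Top2a or Birc5. The members were thus chosen by their measured UMI counts of these genes. This gave 68 cells, 38 in the FLOX library and 30 in the MCT1-KO library, of 648 T cells and of 20428 barcodes that passed the quality limits. The T cells without any UMI of Mki67, Top2a or Birc5, 226 in FLOX and 219 in MCT1-KO, are called non-cycling below and served as the reference, and 74 and 61 T cells lay between both definitions.

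Each library was made from unsorted live cells of pancreatic tumors that arose after KPC cells, tumor cells of mouse pancreas, were injected under the pancreatic capsule of male C57BL/6 mice. The FLOX library came from mice with loxP sites around Slc16a1, which encodes the lactate and proton transporter MCT1. The MCT1-KO library came from Col1a2-CreERT2-MCT1-/- mice, in which a tamoxifen-activated Cre driven by a collagen promoter removes Slc16a1 from collagen-producing cells such as stellate cells, so T cells are not the cells the deletion was aimed at. Tamoxifen in corn oil was given before the tumor cells, whether the FLOX animals of these libraries received tamoxifen or corn oil is not stated, and neither the age of the sequenced mice nor the number pooled per library is given. With 1 library per condition there was no replicate and no test between conditions was possible; condition, animal and library cannot be told apart.

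Antigen and costimulation drive a T cell out of quiescence, in which inhibitors such as p27 hold the cyclin-dependent kinases off. D-type cyclins with CDK4 and CDK6 then release the E2F factors, which switch on the enzymes of DNA replication, and in G2 the genes of chromosome segregation and cytokinesis follow. In tumors, CD8 T cells that divide often carry inhibitory receptors such as PD-1, and dividing regulatory T cells are common as well.

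The selected cells held the machinery of both cycle stages, and the promoters of these genes carry known control letters. The windows were taken from RefSeq on mouse build GRCm38.p6, from 250 bases before to 50 bases after each start, and 27 of 33 listed replication genes and 28 of 32 listed mitosis genes were matched, with 34 and 30 windows. CCAAT, the letters bound by NF-Y, stood on either strand in 83.3% of the mitosis windows, 58.8% of the replication windows and 37.4% of all 32851 windows. TTTGAA, the core of the cell cycle homology region, stood in 80% of the mitosis windows, 11.8% of the replication windows and 17.9% of all windows, while its variant TTCGAA stood in 6.67%, 2.94% and 1.56%. The E2F letters TTTGGCGC stood in 17.6% of the replication windows, none of the 30 mitosis windows and 0.514% of all windows, and TTTCCCGC in 11.8%, none and 1.07%. These are letter matches and not binding measured in these cells.

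The results turn on these cycle genes, so the upstream bases are printed for the mitosis genes with most UMIs in the members, Hmgb2 (a chromatin-bending protein, chr8:57511593-57511842, plus strand) and Ube2c (the ubiquitin carrier of the anaphase-promoting complex, chr2:164769679-164769905, plus strand), and for the replication genes Mcm6 (a subunit of the replicative helicase, chr1:128359706-128359955, minus strand) and Hells (a chromatin remodeler, chr19:38930740-38930935, plus strand). The sequences run 5′ to 3′ towards the start site, and capitals mark the CCAAT box, the TTTGAA core and the E2F letters TTTGGCGC or TTTCCCGC on either strand. Where annotated exons overlap, a sequence ends after its last match with at most 30 exon bases printed. The printed Ube2c and Hells sequences hold 8 and 21 bases of annotated exons. Ube2c holds CCAAT on both strands in overlapping letters. Dut and Pcna had more UMIs than Mcm6 and Hells but their windows lie largely in exons. Their windows also hold none of the E2F letters, and neither do those of Tyms and Rrm1, which had more UMIs too. Mcm6 and Hells were picked after the values were seen because their windows carry E2F letters, which most replication windows do not, and Mcm3, Mcm7 and Dnmt1, which carry them too, held more UMIs than Hells.
Hmgb2: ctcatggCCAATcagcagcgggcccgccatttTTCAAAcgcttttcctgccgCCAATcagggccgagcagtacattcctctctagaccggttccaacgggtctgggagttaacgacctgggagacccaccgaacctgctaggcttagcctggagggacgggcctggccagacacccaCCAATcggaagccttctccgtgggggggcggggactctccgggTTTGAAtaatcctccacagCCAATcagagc
Ube2c: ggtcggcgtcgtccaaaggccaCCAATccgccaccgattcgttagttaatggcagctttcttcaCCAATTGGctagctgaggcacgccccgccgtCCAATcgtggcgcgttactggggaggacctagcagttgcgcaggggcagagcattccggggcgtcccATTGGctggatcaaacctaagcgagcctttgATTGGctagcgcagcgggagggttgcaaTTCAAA
Mcm6: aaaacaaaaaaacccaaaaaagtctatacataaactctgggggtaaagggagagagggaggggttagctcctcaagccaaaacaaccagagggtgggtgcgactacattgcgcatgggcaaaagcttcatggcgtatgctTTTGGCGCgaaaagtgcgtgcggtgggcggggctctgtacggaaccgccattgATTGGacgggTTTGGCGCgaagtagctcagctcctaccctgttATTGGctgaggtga
Hells: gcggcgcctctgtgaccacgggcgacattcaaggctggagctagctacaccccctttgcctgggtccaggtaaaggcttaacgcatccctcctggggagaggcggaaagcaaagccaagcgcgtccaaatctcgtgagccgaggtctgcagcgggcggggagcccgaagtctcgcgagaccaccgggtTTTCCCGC
In the Hmgb2 window TTTGAA lies 30 to 25 bases before the start on the printed strand, with CCAAT nearest to it at 73 to 69 and 11 to 7 bases, and further matches of both lie upstream. The Ube2c window holds TTTGAA on the opposite strand 29 to 24 bases before the start and 6 CCAAT matches. In Mcm6 both E2F matches, at 110 to 103 and 47 to 40 bases, lie on the printed strand, and Hells has TTTCCCGC at 62 to 55 bases.

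The libraries held 177334432 (FLOX) and 151118092 (MCT1-KO) UMIs in all, and 8739 and 11689 barcodes passed the quality limits, with 61149689 and 81494894 of these UMIs. Members held a median of 6885.5 UMIs in FLOX (range 2721 to 13605) and 7087.5 in MCT1-KO (range 3794 to 15600), against 2789.5 and 2421 in non-cycling T cells, with medians of 2502.5 and 2454 detected genes against 1293.5 and 1158. Summed over cells this gave 269996 and 225253 UMIs for the members and 707791 and 598898 for the reference. Levels are given as CPM, the UMIs of a gene scaled to the same total for every cell group, brackets give 95% intervals (exact Poisson for CPM, conditional exact for ratios, Clopper-Pearson for shares), and all of them cover counting error only. A lower CPM is a smaller share of the cell's RNA and need not be fewer molecules per cell. The libraries shared 59 barcodes among those that passed, none of them a T cell.

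The share of T cells that were proliferating was 11.2% in FLOX (38 of 338, 8.08 to 15.1) and 9.68% in MCT1-KO (30 of 310, 6.62 to 13.5), and these intervals overlap. The order turned with at least 6 T cell UMIs per cell (13.8% and 16.7%) and without any keratin or C1q UMI (4.95% and 5.79%). With each cell thinned to 1000 UMIs before the rule, the shares were 6.47% (15 of 232 cells) and 1.45% (2 of 138 cells). The count depends on the limits for other lineages, since 82 and 44 cells met the T cell and cycle limits before them and 44 and 14 of these were set aside, 37 and 9 for C1q UMIs and 15 and 11 for keratin UMIs. Near the cycle limit, 2 FLOX and 1 MCT1-KO members held exactly 4 cycle UMIs, whereas 5 and 3 T cells with 3 cycle UMIs including a core gene stayed out. The median member held 17 cycle UMIs in FLOX and 15 in MCT1-KO. Members also held more T cell receptor complex UMIs than the reference, with medians of 17 and 14 against 9 and 6.

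The rule's own genes chose the cells and are given as description. Mki67, whose protein coats mitotic chromosomes, stood at 456 CPM in FLOX members (30 of 38 cells) and 373 in MCT1-KO members (26 of 30), and Top2a, the topoisomerase that untangles replicated DNA, at 526 and 440. Birc5, which encodes survivin of the chromosomal passenger complex, stood at 281 and 218 CPM. Stmn1 (ENSMUSG00000028832), a microtubule destabilizer, reached 1011 CPM in FLOX and 812 in MCT1-KO, and Pclaf (ENSMUSG00000040204), a PCNA-binding factor, 504 and 355. In non-cycling T cells, which the rule allowed to hold both, Stmn1 stood at 52.3 and 30.1 CPM and Pclaf at 14.1 and 6.68. Cd3e (ENSMUSG00000032093), a signalling chain of the CD3 complex, stood at 337 and 200 CPM against 451 and 399 in the reference, and Cd3d at 759 and 772 against 736 and 730. The 12 further T cell genes that the rule did not use were all detected in both libraries, 8 of them below the reference in both and none above it in both, where 37.6% of all 4822 compared genes were below and 30.3% above. Trbc2, the T cell receptor beta constant region, stood at 1137 and 1039 CPM against 1386 and 1112.

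Tumor epithelial and red cell RNA was nearly lacking in the members, whereas macrophage RNA and, in MCT1-KO, acinar RNA was found in most of them. The rule capped keratin and C1q UMIs, so the tumor epithelial and macrophage levels are set in part by the selection. Within these caps 86.8% of FLOX and 63.3% of MCT1-KO members held a keratin or C1q UMI, and 5 and 11 members held none. The 6 tumor epithelial markers summed to 1 UMI in FLOX and 3 in MCT1-KO, 5 of the 6 being at 0 in each library, and hemoglobin was at 0 in both. The 7 macrophage markers stood at 778 and 497 CPM against 1061 and 606 in the reference and were found in 100% and 96.7% of members, and the 4 dendritic markers, at 178 and 44.4 CPM against 165 and 40.1, in 55.3% and 30.0%. In barcodes of 10 to 100 UMIs, which hold RNA free in the suspension, the macrophage markers stood at 11611 and 9094 CPM. The free RNA share of the members, 5.21% in FLOX and 6.79% in MCT1-KO, was estimated from only 8 and 6 collagen UMIs and is rough. At these shares free RNA would bring 605 and 617 CPM of the macrophage markers. In MCT1-KO members single cells held most of some lists, with 49 of 62 fibroblast UMIs in 1 cell and 46 of 50 neutrophil UMIs in 1 cell. The 6 acinar enzyme genes stood at 44.4 CPM in FLOX members and 795 in MCT1-KO members, against 90.4 and 2201 in the reference and 251 and 12975 in the barcodes of 10 to 100 UMIs, and were found in 23.7% and 93.3% of members. The 5 natural killer markers, some of which CD8 T cells also carry, summed to 37 and 47 UMIs, with Ncr1 at 0 in both libraries. The 6 B and plasma cell markers summed to 5 and 4 UMIs and the 3 endothelial markers to 12 and 6.

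Of the genes compared across proliferating and non-cycling T cells, 145 of 4822 (3.01%) were at least 2-fold higher in both libraries and 128 (2.65%) at least 2-fold lower. This is the contrast that chose the cells, so these counts and the list counts that follow describe the members and test nothing. The replication list had 17 of 20 compared genes at least 2-fold higher in both libraries, with a median ratio of 5.03 in FLOX and 4.65 in MCT1-KO, the mitosis list 17 of 17 with medians of 13.7 and 13.3, and the histone genes 13 of 14 with medians of 8.86 and 9.50. Over all 4822 genes the median ratio was 0.964 and 0.950. The other 98 genes at least 2-fold higher lay in none of these lists.

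**Figure D1:**
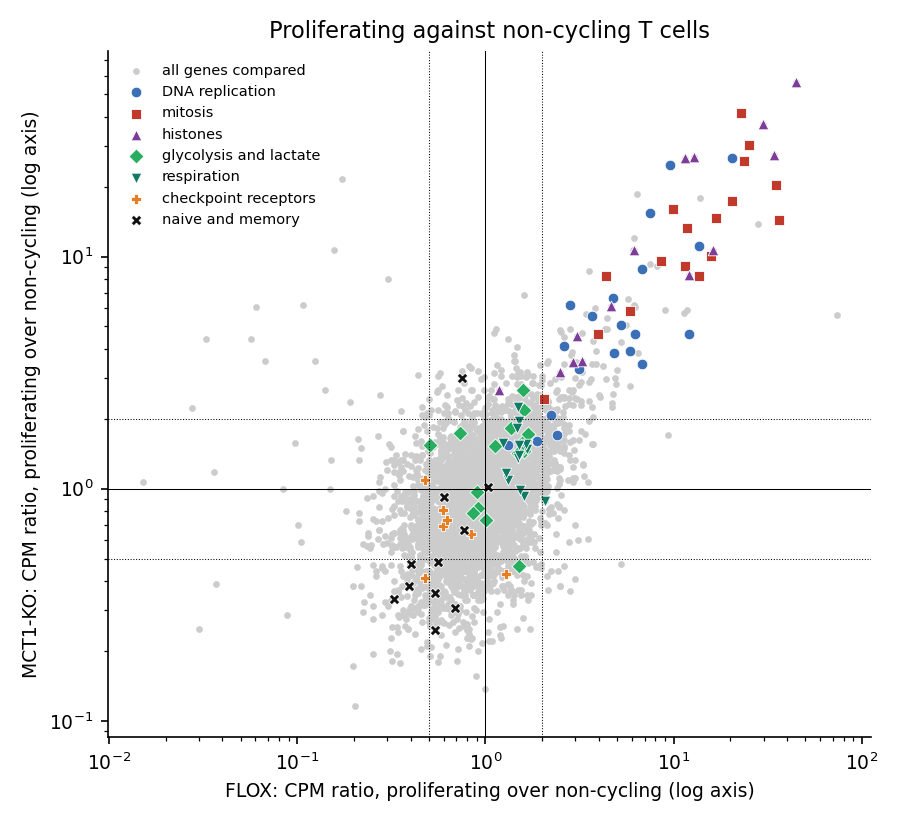
Ratio of CPM in proliferating over non-cycling T cells for the 4822 compared genes, FLOX on the horizontal and MCT1-KO on the vertical log axis, with dotted lines at 2-fold. Replication, mitosis and histone genes lie in the upper right (list medians 5.03 and 4.65, 13.7 and 13.3, 8.86 and 9.50), respiration genes sit mostly slightly above 1 and naive and memory genes mostly below 1.

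Among the replication genes, Dut, which keeps uracil out of DNA, stood at 433 CPM in FLOX members and 400 in MCT1-KO members against 165 and 96.8 in the reference. Pcna, the sliding clamp of the polymerases, stood at 278 and 257 against 89.0 and 78.5, and Tyms, which makes thymidylate, at 193 and 204 against 14.1 and 18.4. The largest ratios of the list belonged to Clspn, an adaptor of the replication checkpoint, at 20.4 (8.05 to 66.5) in FLOX and 26.6 (10.1 to 344) in MCT1-KO, the latter against 2 reference UMIs set to a floor of 3. The smallest was Atad2, a chromatin ATPase, at 1.32 (0.958 to 1.81) and 1.54 (1.04 to 2.26). Mcm6 was 2.23 (1.47 to 3.37) and 2.09 (1.34 to 3.22) times the reference, although the MCT1-KO ratio was 0.917 with each cell thinned to 1000 UMIs, and Hells 2.82 (1.61 to 4.94) and 6.20 (3.06 to 13.4) times.

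The mitosis genes spanned a wider range. Hmgb2 was the most abundant, at 2785 CPM (2590 to 2992) in FLOX members and 2322 (2127 to 2530) in MCT1-KO members against 473 and 399, ratios of 5.88 and 5.82. Ube2c stood at 496 and 204 CPM against 14.1 and 10.02, so the ratio was 35.1 (18.5 to 74.9) in FLOX and 20.4 (8.68 to 58.4) in MCT1-KO. Cdca8, which encodes borealin of the chromosomal passenger complex, was 25.1 (11.5 to 64.8) and 30.1 (9.48 to 153) times higher, and Smc4, a condensin subunit, only 2.04 (1.54 to 2.71) and 2.44 (1.77 to 3.36) times. Among these lists the largest ratios in both libraries were in a replication-dependent histone, Hist1h2ae at 44.6 (22.0 to 105) and 56.5 (21.3 to 212). Histone genes share near-identical coding sequence, so single histone values are uncertain where the counting could split reads among copies.

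Among the 98 genes outside these lists, the 5 with most member UMIs, named after their values were seen, were Ptma, H2afz, Hmgb1, Tubb5 and Tuba1b. Ptma, an acidic chromatin protein of growing cells, held 826 UMIs in FLOX and 632 in MCT1-KO members, ratios of 2.78 and 2.33. H2afz, a histone variant, held 492 and 452 UMIs, ratios of 3.69 and 3.43, and Hmgb1, a DNA-bending protein, 405 and 369 UMIs, ratios of 2.66 and 2.28. Tuba1b and Tubb5, which encode tubulins, were 7.44 and 9.28 times and 4.41 and 5.41 times the reference.

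Every member held UMIs of both the replication and the mitosis list, but in different proportions. Most non-cycling T cells, although shallower, also held UMIs of the replication list (86.7% in FLOX, 83.6% in MCT1-KO) and of the mitosis list (86.7% and 83.1%). Hmgb2 alone gave 752 of 1907 mitosis UMIs in FLOX members and 523 of 1251 in MCT1-KO members. Replication UMIs ran from 2 to 69 per cell in FLOX with a median of 24 and from 2 to 97 in MCT1-KO with a median of 23, and mitosis UMIs from 2 to 164 (median 36.5) and from 2 to 113 (median 37). Mitosis UMIs outnumbered replication UMIs in 21 of 38 FLOX and 18 of 30 MCT1-KO members, and the reverse held in 16 and 12. At least 2 times as many mitosis as replication UMIs were found in 18 and 11 members, and at least 2 times as many replication UMIs in 7 and 4. Across cells, the Pearson correlation of replication and mitosis CPM was -0.332 over the 38 FLOX and 0.0333 over the 30 MCT1-KO members, a description in which both values share each cell's depth. CD8 and CD4 cells lay on both sides of the line of equal counts.

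**Figure D2:**
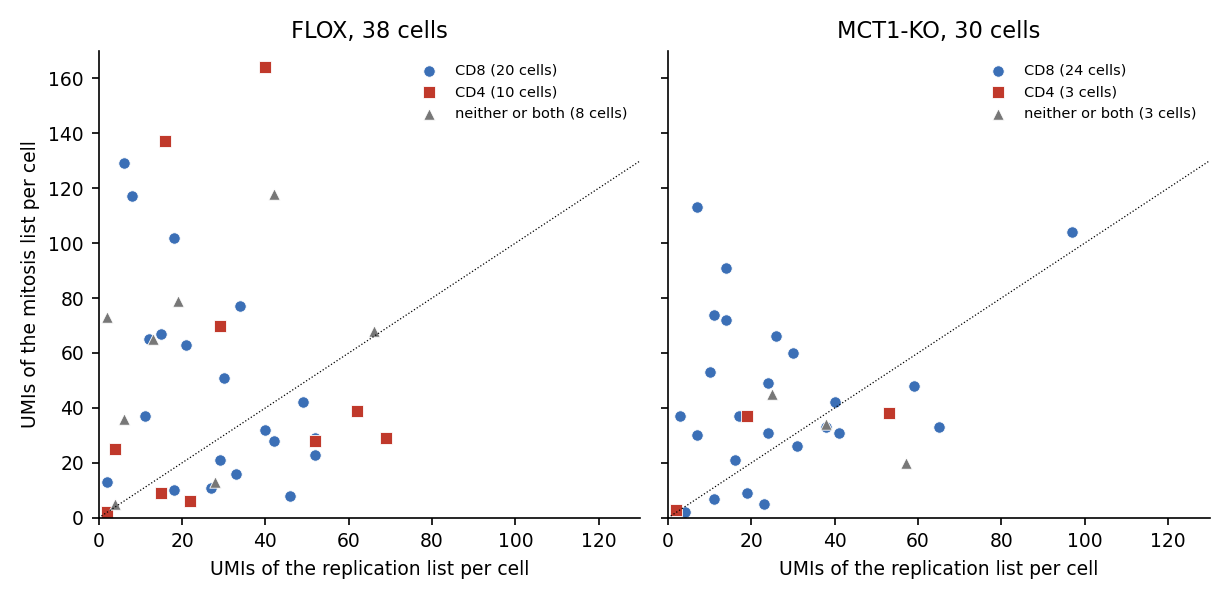
UMIs of the replication list (horizontal) and the mitosis list (vertical) in each of the 38 FLOX and 30 MCT1-KO proliferating T cells, coloured by coreceptor, with a dotted line where both are equal. Mitosis UMIs lie above replication UMIs in 21 and 18 cells, and the highest mitosis counts are 164 and 113.

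The regulators of cycle entry lay on both sides of the reference. Of 15 compared cycle control genes none was at least 2-fold higher in both libraries and 2 were at least 2-fold lower, against 3.01% and 2.65% of all genes, and 4 were above and 7 below 1 in both, with medians of 0.929 and 0.840. Cdkn1b, which encodes the quiescence inhibitor p27, stood at 33.3 CPM (15.2 to 63.3) in FLOX members and 26.6 (9.78 to 58.0) in MCT1-KO members against 110 and 85.2 in the reference, ratios of 0.302 (0.133 to 0.604) and 0.313 (0.110 to 0.729). The antiproliferative gene Btg1 stood at 444 and 471 CPM against 1092 and 1032, and its relative Btg2 at 356 and 479 against 894 and 852. Members held more RNA, and per cell Btg1 was 3.16 and 3.53 UMIs against 3.42 and 2.82, whereas Cdkn1b was 0.237 and 0.200 UMIs against 0.345 and 0.233.

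Cdk4, the kinase partner of the D cyclins, was 1.47 (0.927 to 2.28) and 2.81 (1.72 to 4.60) times the reference. Among its cyclins, Ccnd2 stood at 204 and 178 CPM in the members against 182 and 297, and Ccnd3 at 100 and 120 against 218 and 202. Ccnd1 was nearly lacking in the members, with 3 and 2 UMIs (11.1 and 8.88 CPM), and in the reference. It was found in 7.89% and 6.67% of members and in 6.64% and 4.11% of non-cycling T cells at full depth. In cycling keratin-positive cells of the same libraries, 249 in FLOX and 792 in MCT1-KO, Ccnd1 stood at 238 and 258 CPM. Cdkn2a, which encodes the cycle inhibitors INK4A and ARF and was named after its values were seen, held 14 and 7 member UMIs (51.9 and 31.1 CPM) against 7 and 3 in the reference (9.89 and 5.01 CPM).

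By coreceptor, 20 of 38 FLOX members (52.6%, 35.8 to 69.0) and 24 of 30 MCT1-KO members (80.0%, 61.4 to 92.3) held Cd8a or Cd8b1 UMIs without Cd4. Cd4 alone was found in 10 FLOX members (26.3%, 13.4 to 43.1) and 3 of 30 MCT1-KO members (2.11 to 26.5%), and 6 and 3 members held neither. The non-cycling T cells were 72.6% (66.3 to 78.3) and 51.1% (44.3 to 57.9) CD8 and 11.1% and 16.0% CD4, so the CD8 share of the members lay below that of the reference in FLOX and above it in MCT1-KO. Because members are deeper, each cell was also thinned to 1000 UMIs, which left out 1 FLOX and 8 MCT1-KO reference cells and no member. The CD8 shares were then 36.8% (21.8 to 54.0) against 59.6% (52.8 to 66.0) in FLOX and 40.0% (22.7 to 59.4) against 35.5% (29.1 to 42.4) in MCT1-KO, so both directions stayed. In FLOX the intervals of members and reference overlap at full depth and after thinning, and in MCT1-KO they overlap after thinning.

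In summed levels Cd8a and Cd8b1 together stood at 0.509 (0.425 to 0.606) times the reference in FLOX members and 1.00 (0.830 to 1.21) times in MCT1-KO members, so the MCT1-KO level, unlike the share of cells, was not above the reference beyond its interval. Cd8a stood at 270 and 320 CPM in the members against 534 and 304 in the reference, and Cd4 at 130 (90.3 to 180) and 31.1 (12.5 to 64.0) against 81.9 and 112. C1q-positive cells without T cell UMIs, 2501 and 2051 cells with medians of 5241 and 4686 UMIs, held 1.52 and 0.409 CPM of Cd8a and 2.03 and 1.53 of Cd4. Counted from the other side, 8.40% (5.21 to 12.7) of FLOX CD8 T cells were proliferating, against 13.9% (9.10 to 19.9) in MCT1-KO. For CD4 T cells these shares were 23.3% (11.8 to 38.6) in FLOX and 5.66% (1.18 to 15.7) in MCT1-KO. They use full depth, where the deeper members are more likely to show a coreceptor UMI, and were not formed after thinning. With thinning, Cd4 alone was found in 10.5% (2.94 to 24.8) of FLOX members and 9 of 225 FLOX reference cells. In MCT1-KO it was found in 1 of 30 members and 9.95% of the reference. Neither coreceptor was then found in 52.6% and 56.7% of members, against 36.4% and 53.6% of the reference. Foxp3, the factor of regulatory T cells, was found in 3 FLOX members and 1 MCT1-KO member, with 7 and 1 UMIs, against 8 and 10 UMIs in the reference. Ikzf2, the Helios gene of regulatory and of chronically stimulated T cells, stood at 581 and 497 CPM against 352 and 429.

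**Figure D3:**
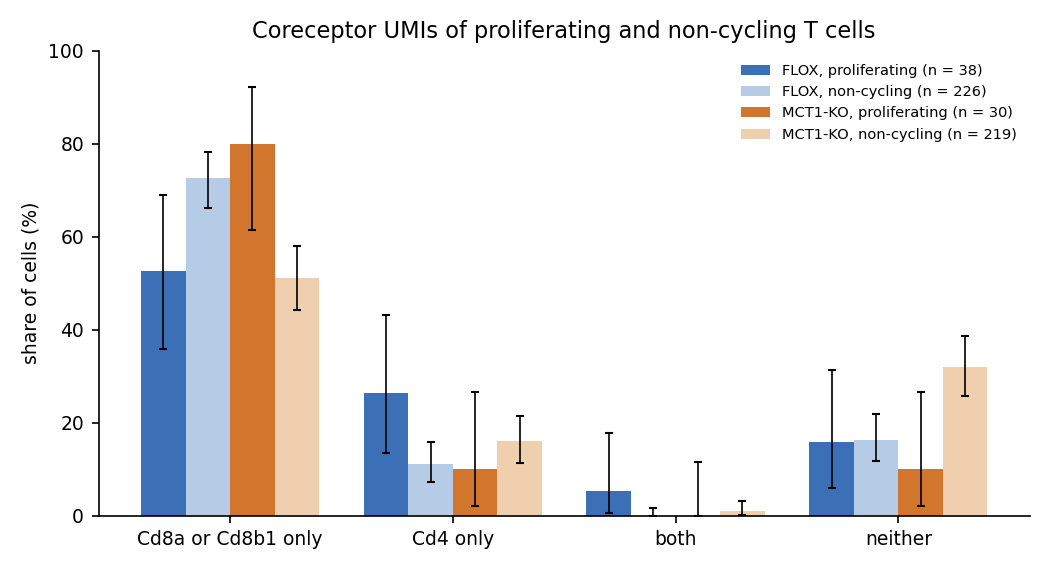
Share of cells (%) by coreceptor UMIs in proliferating (dark bars) and non-cycling (pale bars) T cells of both libraries, at full depth, with 95% Clopper-Pearson intervals. The CD8 share is 52.6% against 72.6% in FLOX and 80.0% against 51.1% in MCT1-KO.

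Most inhibitory receptors were present in the members at a lower share of the RNA than in non-cycling T cells. The ratios here and below pool all T cells of a group. Their CD8 shares differ, 52.6% in members against 72.6% in FLOX and 80.0% against 51.1% in MCT1-KO. In CD8 cells alone 34 ratios of all named genes moved and 158 stayed near those reported. Of 7 compared checkpoint genes 5 were below 1 in both libraries, 1 at least 2-fold lower and none above 1 in both, against 37.6%, 2.65% and 30.3% of all genes, with medians of 0.597 and 0.691. Pdcd1, which encodes PD-1, stood at 330 CPM (265 to 406) in FLOX members and 244 (184 to 318) in MCT1-KO members against 528 and 332, ratios of 0.624 (0.489 to 0.788) and 0.735 (0.535 to 0.995). Per cell the order was the other way, with 2.34 and 1.83 Pdcd1 UMIs per member against 1.65 and 0.909. A Pdcd1 UMI was found in 68.4% and 73.3% of members against 61.9% and 43.4% of the reference at full depth, and in 18.4% (7 of 38) and 6 of 30 against 36.4% and 24.6% after thinning, with 0.400% and 0.390% in the C1q-positive cells at full depth. The full-depth shares go against the CPM and give no order.

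Ctla4 stood at 467 and 382 CPM against 781 and 553, and Tigit, which competes with CD226 for its ligand, at 48.1 and 40.0 against 100 and 96.8 on 13 and 9 UMIs. Lag3 went apart between the libraries, at 0.479 (0.293 to 0.750) in FLOX and 1.09 (0.680 to 1.69) in MCT1-KO, and the FLOX ratio was 1.33 in the 5 members without any keratin or C1q UMI. Tox, the transcription factor of exhausted T cells, stood at 596 and 355 CPM against 616 and 463. Of 10 compared exhaustion factors 8 were below 1 in both libraries and 1, Eomes, above it, against 37.6% and 30.3% of all genes, with medians of 0.756 and 0.792. Among CD8 T cells with a Pdcd1 UMI, 8.43% (4.69 to 13.7) of FLOX and 20.2% (12.6 to 29.8) of MCT1-KO cells were proliferating, and among those without one 8.33% (3.12 to 17.3) and 6.33% (2.09 to 14.2), with deeper cells more likely to show both.

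Most genes of resting and memory T cells lay below the reference in both libraries, a minority of them by 2-fold in both. Of 11 compared naive and memory genes 9 were below 1 in both libraries and 3 at least 2-fold lower, Satb1, Foxp1 and Slamf6, against 37.6% and 2.65% of all genes, with medians of 0.562 and 0.476. Foxp1, which keeps T cells quiescent, stood at 55.6 and 53.3 CPM in the members against 171 and 159. Bcl2, the survival gene, stood at 133 and 79.9 against 249 and 324, and Il7r, the receptor for the homeostatic cytokine IL-7, at 107 and 115 against 157 and 376. Tcf7, which encodes TCF-1 of stem-like T cells, had 7 and 4 member UMIs, and its ratios of 0.765 (0.278 to 1.83) and 0.665 (0.162 to 2.06) both include 1. Ccr7, a lymph node homing receptor, stood at 40.7 and 129 CPM against 39.6 and 127.

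Effector genes split. Gzmb, the main killing protease, stood at 381 CPM (311 to 463) in FLOX members and 386 (309 to 476) in MCT1-KO members against 280 and 249, ratios of 1.36 (1.06 to 1.74) and 1.55 (1.18 to 2.04). In FLOX 2 members held 28 and 27 of the 103 Gzmb UMIs, and without the 2 members with most Gzmb in each library, left out after seeing the values, the ratios were 0.691 and 1.34. Ccl5, a chemokine of resting effector and memory cells, stood at 1837 and 1629 against 6262 and 5038, ratios of 0.293 (0.267 to 0.322) and 0.323 (0.289 to 0.361), and per cell also was lower, 13.1 and 12.2 UMIs against 19.6 and 13.8. Nkg7, a granule membrane protein, stood at 2063 and 1447 against 2741 and 1626. Ifng stood at 230 and 142 CPM against 273 and 98.5, with ratios of 0.842 (0.622 to 1.13) and 1.44 (0.907 to 2.25) that both include 1. Over the 16 compared cytotoxic genes the medians were 0.753 and 1.04, with 1 gene, Gzmc, at least 2-fold higher and 1, Ccl5, at least 2-fold lower in both libraries, against 3.01% and 2.65% of all genes. The FLOX value of Gzmc rests on 1 member, which held 81 of the 85 UMIs of Gzmc to Gzmf in FLOX members.

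Of the costimulatory receptors 6 of 11 and of the homing receptors 8 of 12 were below 1 in both libraries, against 37.6% of all genes, with medians of 0.783 and 0.766 and of 0.758 and 0.625. Tnfrsf9, the 4-1BB receptor induced by antigen, stood at 489 and 670 CPM against 462 and 650. Icos stood at 170 and 209 against 307 and 471. Cxcr3, the receptor for interferon-induced chemokines, had 7 UMIs in FLOX members and 0 in MCT1-KO members against 46 and 26 in the reference. The ratio was 0.399 (0.152 to 0.890) in FLOX. With the 0 set to a floor of 3 UMIs per group Cxcr3 was 3.26-fold lower in MCT1-KO, a value that leaves out counting error. Itgae, the integrin that binds T cells to epithelium, had 2 and 0 UMIs against 40 and 21.

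**Figure D4:**
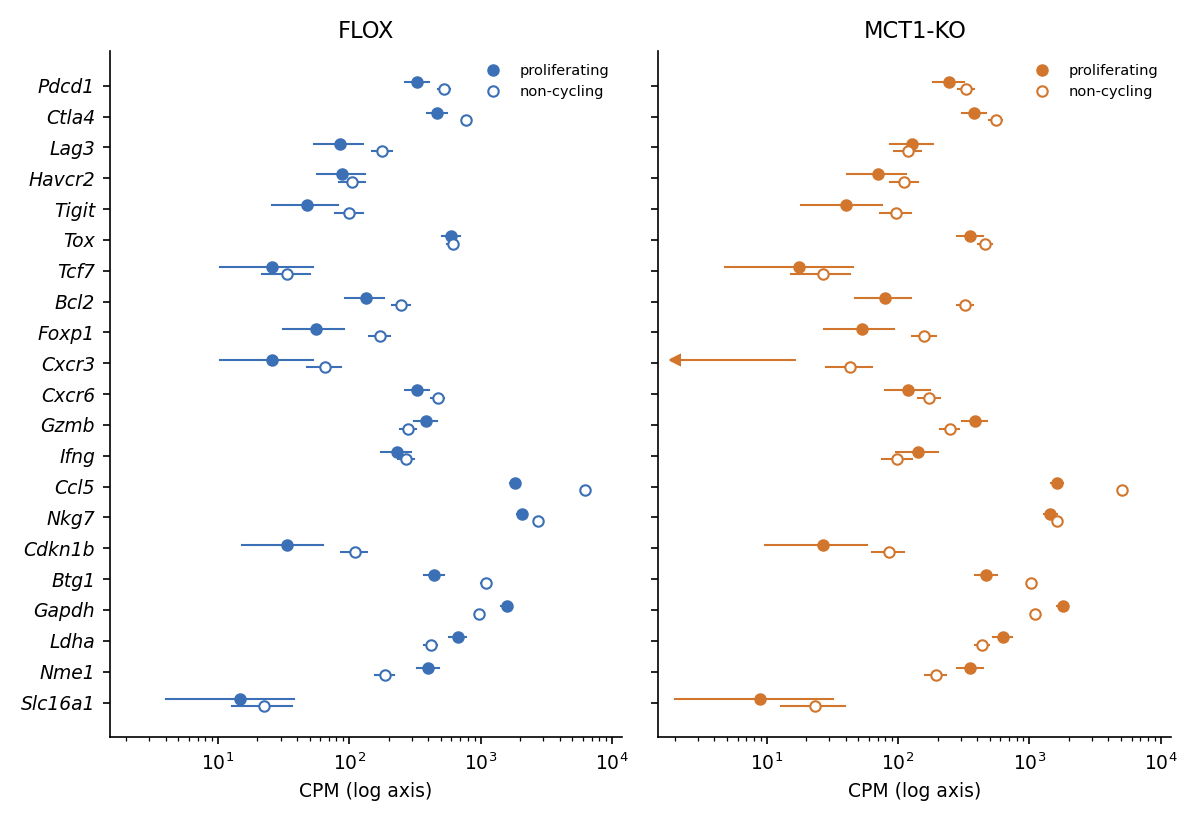
CPM (log axis) of named genes in proliferating (filled) and non-cycling (open) T cells, with 95% Poisson intervals, FLOX left and MCT1-KO right. An arrow marks Cxcr3, at 0 in MCT1-KO members, and Pdcd1 lies at 330 against 528 and 244 against 332 while Gapdh lies at 1585 against 982 and 1789 against 1109.

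Of 15 compared genes of glycolysis and lactate transport 8 were above 1 and 3 below 1 in both libraries, against 30.3% and 37.6% of all genes. None was past 2-fold in both, against 3.01% of all genes higher and 2.65% lower, and the medians were 1.36 and 1.53. Gapdh stood at 1585 CPM (1439 to 1743) in FLOX members and 1789 (1619 to 1973) in MCT1-KO members against 982 and 1109, a ratio of 1.61 in each. Ldha, which turns pyruvate into lactate, stood at 670 and 630 against 417 and 434, ratios of 1.61 (1.33 to 1.94) and 1.45 (1.18 to 1.79). Slc16a1, the transporter gene deleted in collagen-producing cells of the MCT1-KO mice, held 4 UMIs in FLOX members and 2 in MCT1-KO members (14.8 and 8.88 CPM) against 16 and 14 in the reference (22.6 and 23.4 CPM), and the exporter gene Slc16a3 held 2 and 3. At these counts no difference in lactate transporter RNA was detectable.

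Of 11 compared nucleotide synthesis genes 1, Dctpp1, was at least 2-fold higher in both libraries, against 3.01% of all genes. In both libraries 8 were above 1 and none below 1, against 30.3% and 37.6% of all genes, with medians of 1.79 and 1.77. Dctpp1, which clears modified cytidine nucleotides, was 4.42 (2.30 to 8.79) and 4.87 (2.67 to 9.19) times the reference and Nme1, a nucleoside diphosphate kinase, 2.14 (1.65 to 2.79) and 1.83 (1.36 to 2.46) times. In the respiration list 11 of 14 genes were above 1 in both libraries and none below, read against the same shares, with medians of 1.51 and 1.43, and Cox5b, a subunit of cytochrome oxidase, stood at 741 and 906 CPM against 444 and 613. The nutrient transporters, with 5 compared genes at medians of 0.798 and 0.858, had none past 2-fold in both libraries. Of all genes 3.01% were 2-fold higher and 2.65% 2-fold lower in both. The 7 compared interferon response genes had medians of 0.863 and 1.30 and none past 2-fold in both, read against these 2-fold shares. The 10 listed interferon genes summed to 1.03 (0.923 to 1.16) and 1.28 (1.12 to 1.47) times the reference. Ribosomal protein genes lay at 0.988 and 0.968 at the median of 86, close to the median of all genes.

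Of the 128 genes at least 2-fold lower in the members 49 had under 10 member UMIs and 79 at least 10. Among the 12 lowest were Cdkn1b, Tnfsf8 (the CD30 ligand), Ly6c2 and the histone demethylase genes Kdm7a and Kdm5b. Ly6c2, a surface protein of memory-type CD8 T cells and of monocytes, stood at 48.1 and 35.5 CPM against 215 and 120, with the MCT1-KO ratio at 1.13 after thinning. Retnlg, a neutrophil gene, also ranked there, at 0 in the members, but 853 of the 1278 neutrophil marker UMIs of the FLOX reference came from 1 cell.

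Between the libraries, 24 of 1468 compared genes (1.63%) were at least 2-fold higher and 38 (2.59%) at least 2-fold lower in MCT1-KO than in FLOX members. With no replicate these are values of these libraries. The replication list had none of 17 genes past 2-fold in either direction, with a median ratio of 0.922, and the mitosis list 1 of 14, Ube2c, lower at 0.411 (0.288 to 0.579), with a median of 0.750. The same medians in non-cycling T cells were 0.818 and 0.775.

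The highest MCT1-KO ratio was that of Gzmf, one of the granzymes of the cluster Gzmc to Gzmf, proteases that strongly activated CD8 T cells make. Gzmf held 1 UMI in FLOX members and 228 in MCT1-KO members, Gzmd 0 and 54, and Gzmc 84 and 63. Together the 4 genes held 85 UMIs in FLOX members, 81 of them in 1 cell, and 374 in MCT1-KO members, where 9 of 30 cells had any and 5 cells with at least 2 of the genes held 350, the highest single cell 119. All 5 were CD8 cells. In MCT1-KO non-cycling T cells the 4 genes held 119 UMIs, 71 of them in 1 cell. There 2 cells with at least 2 of the genes held 81 of these UMIs, and 0 of these cells counted as CD8. In free RNA Gzmf stood at 2.14 CPM in MCT1-KO and 3.02 in FLOX, Gzmd at 4.78 and 0.835, Gzme at 1.38 and 0.610, and Gzmc at 8.38 and 4.98. The ratio of Gzmb itself was 1.01 (0.752 to 1.36), or 1.73 without the 2 members with most Gzmb in each library, and Gzma, held by 4 and 2 cells, was lower at 0.308 (0.173 to 0.523).

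Penk, which encodes the enkephalin precursor, held 8 UMIs in 5 FLOX members and 62 in 12 MCT1-KO members, a ratio of 9.29 (4.43 to 22.5) against 2.14 in non-cycling T cells. Serpine2, a protease inhibitor, held 11 and 59 UMIs in 6 and 11 members, a ratio of 6.43 (3.35 to 13.6) against 1.51. Serpinb6b, a granzyme-inhibiting serpin, was higher by the same amount in both groups, 3.27 in the members and 3.27 in the reference. Odc1, the first enzyme of polyamine synthesis, stood at 256 and 617 CPM in the members, a ratio of 2.41 (1.80 to 3.27) against 1.98 in the reference.

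Of the other genes with high ratios, 65 of 66 Cxcl13 UMIs, 41 of 48 of Dcn and 55 of 57 of C3 in MCT1-KO members lay in 1 cell each. Mt2, a metallothionein, was spread more widely, with 114 UMIs in 21 of 30 MCT1-KO members and 38 of them in 1 cell, a ratio of 3.33 against 0.703 in non-cycling T cells and 1.08 in free RNA. C3 was at 0.648 in place of 11.4 without the cells that held 20 or more UMIs of another lineage. Ctrb1, a pancreatic digestive enzyme, held 5 UMIs in FLOX and 69 in MCT1-KO members, a ratio of 16.5 (6.76 to 52.5), beside 43.8 in non-cycling T cells and 45.9 in barcodes of 10 to 100 UMIs. Free RNA was estimated at 5.21% of FLOX and 6.79% of MCT1-KO member UMIs. These shares are rough, resting on 8 and 6 collagen UMIs with 1 MCT1-KO member of 20 or more fibroblast UMIs left out. The MCT1-KO share would bring 339 CPM of Ctrb1 to the members, where 306 were measured. With free RNA subtracted at these shares the ratios were 92.5 for Gzmf, 0.0328 for Hspa1a and 5.36 for Mt2, and no ratio could be formed for Ctrb1.

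**Figure D5:**
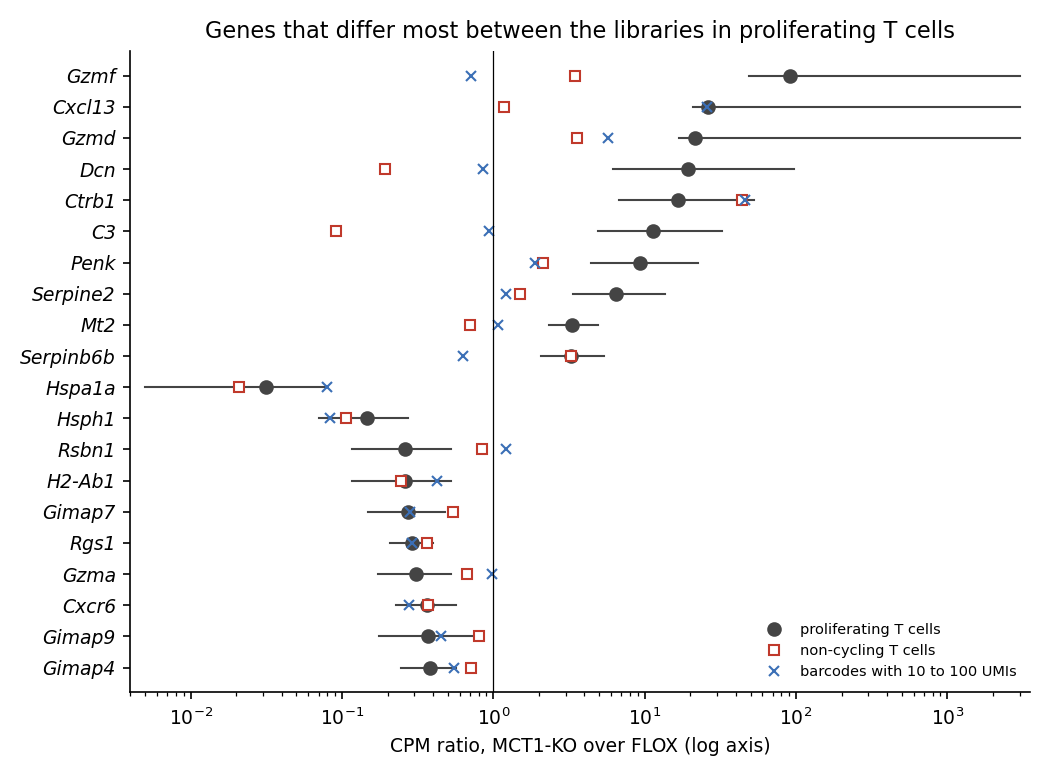
CPM ratio of MCT1-KO over FLOX (log axis) for the 10 highest and 10 lowest genes in proliferating T cells (circles, 95% intervals that run to the axis end where a count is under 3), with the same ratio in non-cycling T cells (squares) and in barcodes of 10 to 100 UMIs (crosses). Hspa1a, Hsph1, H2-Ab1, Rgs1 and Cxcr6 lie below 1 in all 3 groups, whereas Gzmf lies at 91.1 in members, 3.45 in non-cycling T cells and 0.707 in free RNA.

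Of the genes lower in MCT1-KO members, heat shock genes led. In the heat shock and AP-1 list 5 of 9 compared genes were at least 2-fold lower, against 2.59% of all genes, with a median of 0.449, and the median in non-cycling T cells was 0.417. Hspa1a, the stress-induced HSP70, held 115 UMIs in FLOX members and 2 in MCT1-KO members. UMIs of Hspa1a or its near-identical copy Hspa1b, between which reads cannot be told apart with certainty, were found in 25 of 38 FLOX members (65.8%, 48.6 to 80.4) and 2 of 30 MCT1-KO members (6.67%, 0.818 to 22.1). In non-cycling T cells the shares were 46.5% and 2.28%, and in free RNA Hspa1a stood at 253 and 20.1 CPM, so FLOX was higher in dividing T cells, resting T cells and free RNA alike.

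Rgs1, which dampens chemokine receptor signals, held 203 and 49 UMIs, a ratio of 0.289 (0.207 to 0.397) against 0.365 in non-cycling T cells, and Cxcr6, the receptor for CXCL16, 89 and 27 UMIs, 0.364 (0.227 to 0.565) against 0.369. The GTPase genes Gimap7, Gimap9 and Gimap4, which act in lymphocyte survival, were at 0.274, 0.369 and 0.380 in the members and 0.537, 0.805 and 0.709 in non-cycling T cells, but Gimap9 and Gimap4 were at 1.10 and 1.17 in members without any keratin or C1q UMI. Rsbn1, a nuclear protein gene, held 46 and 10 UMIs, a ratio of 0.261 (0.117 to 0.523) against 0.844, with 15 of the FLOX UMIs in 1 cell. Whether any of these differences belongs to the deletion was not tested.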

How the data were processed

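Tumors were dissociated and sequenced as 3′ single-cell libraries with barcoded beads in microwells per the labels; the study's methods name droplet kits. Read trimming by the authors used Fastp and counting used SeekOneTools, and the deposited values are whole-number UMI counts for 32285 mouse genes in every barcode, without a cell annotation. The methods name a human build beside mouse gene identifiers, so the build behind the counts is unclear. The authors filtered cells in Seurat 4.0.0 and annotated a doublet cluster; how it was called is not given in the sources used here.

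Cells were selected as described in Python 3.11.15 (scipy 1.17.1 for intervals, scikit-learn 1.9.0 for doublet scores, pandas 2.3.3 and numpy 2.4.6 for tables), and counts were summed per library and cell group. Compared genes held at least 50 UMIs in the groups compared, the rule's genes left out. Counts under 3 were set to a floor of 3; where the floor left the side of 1 undecided no ratio was formed (13 genes in FLOX, 10 in MCT1-KO). Named genes were the rule's genes, fixed list members of most UMIs and extreme ratio, the 12 highest and lowest genes against the reference, the 10 highest and lowest between libraries, and Pdcd1, Slc16a1, Cxcr3, Gzmb, Ifng, Tcf7 and Foxp3; others are named as chosen after their values were seen, or lie in the lists. Doublets were scored against simulated pairs and kept. Members, lists and rules were chosen with earlier results of these data known. The scripts were tested on simulated data.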

Additional observations from a re-analysis of the deposited data

Results flagged for a closer look

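Among the named genes, 4 were at least 2-fold higher in proliferating than in non-cycling T cells in one library and at least 2-fold lower in the other, and with 1 library per condition the difference was not tested. Penk was 0.488 times the reference in FLOX and 2.11 times in MCT1-KO. Gzmf was 0.302 times in FLOX, on 1 member UMI, and 7.98 times in MCT1-KO, where 6 of 30 members held it. Dcn was 0.0605 and 6.08 times and C3 0.173 and 21.7 times the reference, and for both most of the MCT1-KO member UMIs lay in 1 cell (41 of 48 and 55 of 57), while 1 FLOX non-cycling cell held 829 of 1024 fibroblast marker UMIs.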

How the results depend on the processing

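Of 102 alternative values of the shares and gene counts 78 stayed near those reported and 24 moved. Near means inside the reported interval for shares and within 1.5-fold for counts. A limit of 1000 UMIs, no upper limit on genes and a mitochondrial share of 5% kept the same 38 and 30 members. Those settings could therefore move little, and the totals do not measure how steady the results are. With at least 6 T cell UMIs the shares of T cells that were proliferating were 13.8% in FLOX and 16.7% in MCT1-KO, so their order turned, and the genes lower than the reference 70. Without any keratin or C1q UMI, which left 5 and 11 members, the shares were 4.95% and 5.79%, again with MCT1-KO higher, and the counts 47 higher and 21 lower than the reference and 6 higher and 16 lower in MCT1-KO. With each cell thinned to 1000 UMIs before the rule, the shares were 6.47% (15 of 232 cells) and 1.45% (2 of 138 cells). For the members chosen at full depth, with thinned values, the MCT1-KO CD8 share was 40.0% and the counts 34, 30, 1 and 3. A limit of 200 UMIs per gene gave 33, 30, 3 and 3, and one of 20 UMIs gave 317 higher than the reference and 157 higher and 234 lower in MCT1-KO. CD8 cells alone gave 24 lower in MCT1-KO, and a reference of cells with at least 2500 UMIs, added after seeing the data, 55 lower. Fewer genes passed with thinning or the limit of 200 UMIs and more with that of 20 UMIs, and what moved the other counts was not tested. Of 2809 alternative ratios of named genes 220 moved, 79 of them without any keratin or C1q UMI, 74 with thinning and 34 in CD8 cells alone. A further 8 turned: without any keratin or C1q UMI Lag3 in FLOX (1.33), C3 (0.411), Gimap9 (1.10) and Gimap4 (1.17) between libraries, C3 without the highest doublet scores (0.632) and without cells with 20 UMIs of another lineage (0.648, added after seeing the data), and with thinning Ly6c2 (1.13) and Mcm6 (0.917) in MCT1-KO. Ratios whose side of 1 a count under 3 leaves undecided were not formed. Counts under 10 UMIs limit the rarer genes. No paired analysis was possible because each condition has 1 library and the labels give no replicate numbers.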
